A study of Mus musculus with 6 samples.

Results

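A set of 10 muscle genes was followed in adipose tissue RNA of KM mice: Acta1, Ckm, Mylpf, Tnni2, Tnnc2, Tnnt3, Mb and Atp2a1, which serve striated muscle, and the Popeye genes Popdc2 and Bves. They are the 10 rows with these symbols among the 19928 genes of the deposited table. The set was selected on the FPKM values of these same samples, in which Acta1 and Popdc2 were lower in RAS, so their differences between the groups are given as a description and without a test. The treated group holds 3 samples from mice fed RAS (radix Angelica sinensis, a medicinal root) as a supplement, 10.00 g for each kg of body weight, and the control group 3 samples whose diet label reads control. A high-fat diet is named in the title of the series and not in the sample labels. The labels do not state the fat depot, the sex or age of the mice, or how many animals a sample pools, so errors measure the spread between these samples. The columns of the control samples were recognised by elimination, since the labels name only the RAS columns.

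Striated muscle shortens when myosin pulls on thin filaments of actin, and calcium released from the sarcoplasmic reticulum permits this through the troponin complex on those filaments. Calcium is pumped back after each contraction, while creatine kinase and myoglobin keep ATP and oxygen at hand. Fat cells themselves build no sarcomeres. Popeye proteins are membrane proteins that bind cyclic AMP and are best known from heart and skeletal muscle.

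The promoters of 4 of the genes are shown as examples: Acta1 and Popdc2 were lower in every RAS library, and Mylpf and Tnnc2 stood high in 1 control library only. Other genes of the set shared these patterns. Each line gives the 250 bases before a RefSeq transcription start (GRCm38.p6), 5′ to 3′ on the gene's strand, at chr8:123894776-123895025 (minus strand) for Acta1, chr16:38361940-38362189 (plus) for Popdc2, chr7:127211358-127211607 (plus) for Mylpf and chr2:164779735-164779984 (minus) for Tnnc2. Capitals mark motif matches on either strand.
Acta1: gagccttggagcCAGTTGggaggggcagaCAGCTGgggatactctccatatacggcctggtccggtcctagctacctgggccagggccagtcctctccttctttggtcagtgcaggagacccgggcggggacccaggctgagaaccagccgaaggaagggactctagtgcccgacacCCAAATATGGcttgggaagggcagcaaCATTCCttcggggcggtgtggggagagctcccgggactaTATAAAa
Popdc2: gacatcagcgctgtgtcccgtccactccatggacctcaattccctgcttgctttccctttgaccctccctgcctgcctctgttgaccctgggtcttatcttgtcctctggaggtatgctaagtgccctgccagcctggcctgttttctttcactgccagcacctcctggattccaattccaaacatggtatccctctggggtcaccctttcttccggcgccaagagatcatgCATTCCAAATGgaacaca
Mylpf: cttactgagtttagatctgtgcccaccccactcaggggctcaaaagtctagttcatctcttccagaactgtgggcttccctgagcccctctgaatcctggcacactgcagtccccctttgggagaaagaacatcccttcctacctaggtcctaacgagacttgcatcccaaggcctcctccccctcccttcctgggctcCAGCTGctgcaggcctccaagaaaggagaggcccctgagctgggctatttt
Tnnc2: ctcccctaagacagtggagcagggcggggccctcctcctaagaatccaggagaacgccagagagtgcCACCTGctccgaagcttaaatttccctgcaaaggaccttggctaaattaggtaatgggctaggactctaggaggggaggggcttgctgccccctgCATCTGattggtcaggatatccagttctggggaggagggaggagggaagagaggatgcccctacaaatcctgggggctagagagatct

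Acta1 held a CArG box, the motif read by serum response factor, at -73 to -64 from the start, an MCAT motif (CATTCC) at -46 to -41, a TATA motif (TATAAA) at -7 to -2 and a pair of E-boxes (CANNTG), at -238 to -233 and -221 to -216. On this minus strand the table's Acta1 locus begins at 123894736, downstream of the RefSeq start at 123894775. Distances counted from the table's start would thus be larger. Popdc2 held an MCAT motif at -18 to -13, whose last base is the first of an E-box at -13 to -8. The locus that the table gives for Popdc2 starts at 38362173, just before the RefSeq start used here, so the last printed bases lie within it. These bases include the E-box and all of the MCAT motif except its first base. Both motifs also lie within the RefSeq gene, which begins at 38362161. Mylpf held 1 E-box, at -51 to -46, and Tnnc2 held 2, at -183 to -178 and -88 to -83. RefSeq windows were matched for 7 of the 10 genes, and those of Ckm, Mb and Atp2a1 held E-boxes and none of the other motifs searched, the MEF2 box among them. Over 32851 mouse promoter windows of this length, 66.2% held an E-box, 12.6% an MCAT motif, 12.4% the TATA motif, 2.92% a MEF2 box and 1.47% a CArG box. A match describes these letters and is not a measured binding site.

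The libraries were alike in depth, at 14.4 to 15.7 M read equivalents, where a read equivalent is the authors' scaled count divided by the commonest low value of its column. The tissue label held: the summed FPKM (fragments scaled to transcript length and library size) of 8 white adipocyte markers was 47358, 39279 and 56014 in the RAS libraries and 37074, 28683 and 30316 in the control libraries. Most of each sum was Fabp4, and by mean FPKM 3 of the 8 markers were lower in RAS and 5 higher. Libraries stood apart in markers of other cells. Control 1 had the highest value of 11 of 12 skeletal muscle markers and the lowest of 8 of 8 mesothelium markers, and RAS 3 had the highest of 9 of 10 brown or beige adipocyte markers. The main results on the 10 genes are therefore given with and without control 1.

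Acta1, the alpha actin of skeletal thin filaments (NCBI gene 11459, chromosome 8, 123891767 to 123894736), was by far the most abundant of the 10 genes per length. It was at 21.2, 59.6 and 34.3 FPKM in RAS 1, 2 and 3, against 180.0, 134 and 66.8 FPKM in control 1, 2 and 3. Every RAS library lay below every control library, but RAS 2 and control 3 were close, and both groups were widely spread. The means were 38.4 ± 19.5 FPKM in RAS and 127 ± 56.9 FPKM in control (SD, n = 3 each), a log2 difference of -1.71 ± 0.45 (SE, limma, on log2(FPKM + 1), RAS minus control). Leaving out each library in turn moved that difference between -2.11 and -1.36. The values rested on 340, 957 and 548 read equivalents in RAS and 3260, 2577 and 1112 in control, so counting error was small beside the spread. Actins resemble each other: 2.02% of the 50-base words of Acta1 transcripts also occur in transcripts of other genes, Actb among them.

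Popdc2, a Popeye protein known for its part in pacing the heart (NCBI gene 64082, chromosome 16, 38362173 to 38378216), was at 3.96, 3.85 and 3.20 FPKM in RAS and 10.1, 7.85 and 7.81 FPKM in control. The groups were apart, with a gap wider than the range within either, and control 1 was again the highest library. The means were 3.67 ± 0.414 FPKM in RAS and 8.58 ± 1.30 FPKM in control (SD, n = 3 each), a log2 difference of -1.03 ± 0.13 (SE). It was -0.92 without control 1 and -1.09 without control 3, the ends of the range over the 6 libraries left out in turn. In read equivalents Popdc2 stood at 114, 111 and 94 in RAS and 322, 271 and 243 in control. In bulk tissue, fewer cells that carry such a transcript and less of it per cell cannot be told apart.

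Bves, the founding Popeye gene (NCBI gene 23828, chromosome 10), was near the detection limit. It was listed at 0, 0.114 and 0 FPKM in RAS and at 0.115, 0.457 and 0.222 FPKM in control. That is 0, 3 and 0 read equivalents in RAS and 3, 14 and 6 in control. RAS 2 and control 1 were almost equal, and Bves was the one gene of the 10 that was highest in control 2.

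**Figure D1:**
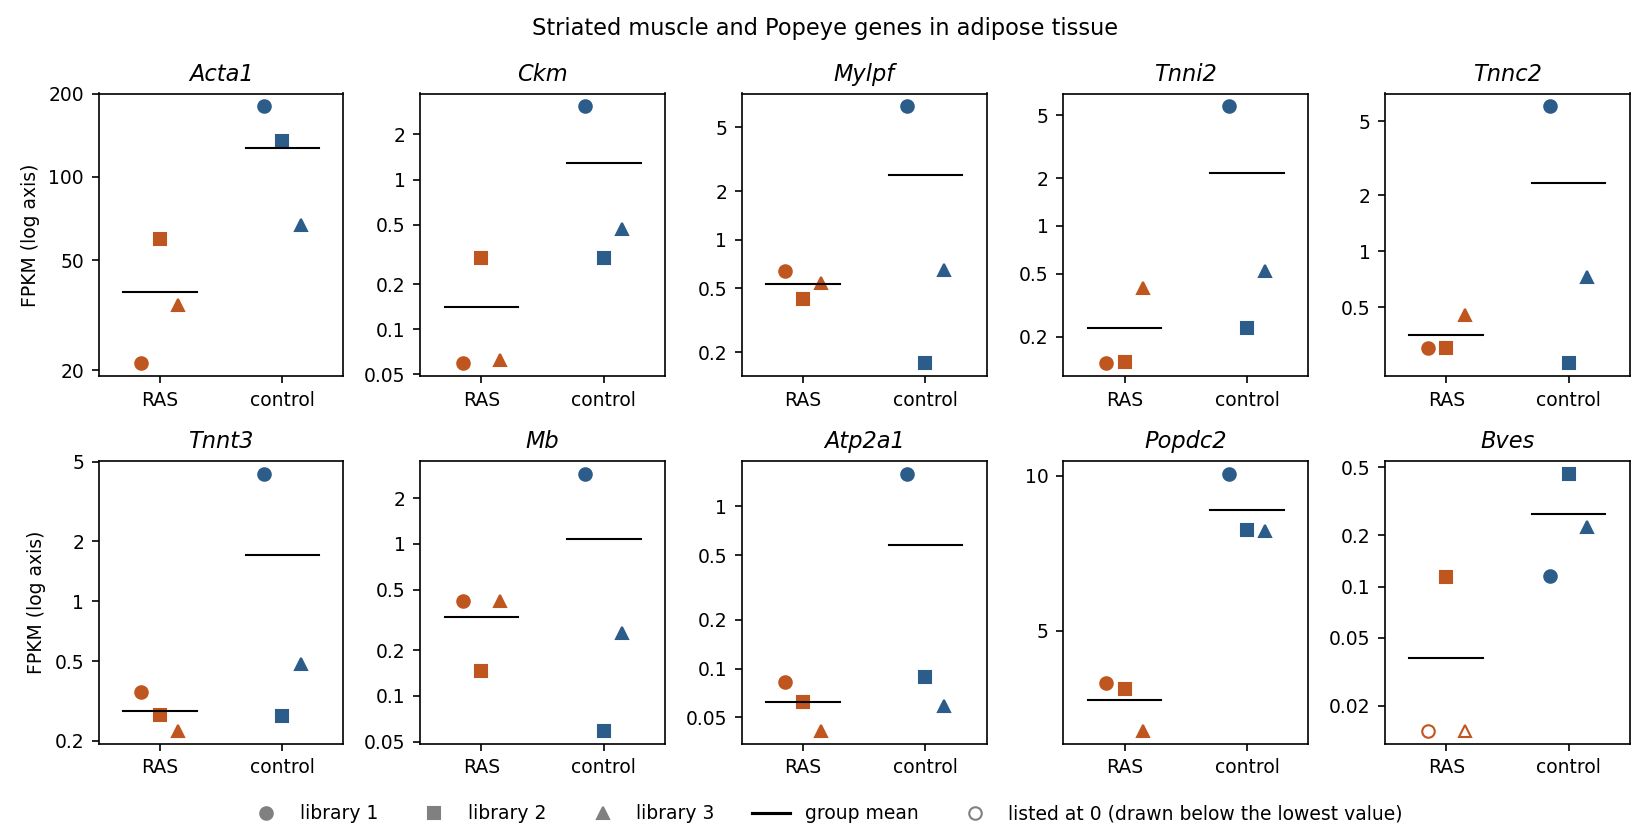
FPKM of each of the 10 genes (vertical log axes, a scale of its own per gene) in the 3 RAS and 3 control libraries, with black bars for group means and open marks for values listed at 0. Acta1 and Popdc2 are lower in all RAS libraries, while Ckm to Atp2a1 in the middle panels are high in control 1 alone and Bves is highest in control 2.

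The other 7 genes, called the muscle-fibre genes below, were high in control 1 and under 1 FPKM in every other library. Among the thin-filament regulators, Tnni2, the inhibitory subunit of fast troponin, was at 0.135, 0.138 and 0.405 FPKM in RAS and 5.70, 0.225 and 0.521 FPKM in control. Control 1 was 10.9 times the next highest library, and the groups overlapped with or without it. Tnnc2, the calcium-binding subunit of fast troponin, was at 0.302, 0.303 and 0.454 FPKM in RAS and 6.002, 0.249 and 0.729 FPKM in control. Tnnt3, the subunit that ties fast troponin to tropomyosin, was at 0.351, 0.271 and 0.225 FPKM in RAS and 4.34, 0.267 and 0.486 FPKM in control. Each of these subunits stood in control 1 at 8.24 to 10.9 times its next highest library. Tnni2 and Tnnt3 both lie on chromosome 7, with 16.5 kb between the loci that the table gives. The table's Tnnt3 locus, from 142460870, also overlaps Lsp1 and Gm14492. In RefSeq the distance is larger, since Tnni2 ends at 142444410 and Tnnt3 begins at 142498771.

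Mylpf, the regulatory light chain of fast myosin, was at 0.635, 0.426 and 0.539 FPKM in RAS and 6.74, 0.171 and 0.647 FPKM in control. Its lowest value of all was in a control library, so the controls lay on both sides of RAS. Atp2a1, the calcium pump SERCA of fast fibres, was at 0.0823, 0.0624 and 0.0413 FPKM in RAS and 1.59, 0.0885 and 0.0591 FPKM in control. With 18.0 times the next highest library it had the steepest step to control 1 of the 7. Mb, myoglobin, was at 0.421, 0.145 and 0.420 FPKM in RAS and 2.89, 0.0590 and 0.259 FPKM in control. Both its other controls lay within or below the RAS range.

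Ckm, the creatine kinase of muscle, was at 0.0594, 0.298 and 0.0625 FPKM in RAS and 3.08, 0.302 and 0.465 FPKM in control. Its group ranges did not overlap, but RAS 2 and control 2 differed by 1 read equivalent, at 5 and 6. Summed over the 7 muscle-fibre genes, the read equivalents were 27, 22 and 24 in RAS and 450, 24 and 40 in control. The sum in FPKM was 1.99, 1.64 and 2.15 in RAS and 30.3, 1.36 and 3.17 in control, and control 1 was 9.58 times the next highest library. In FPKM, control 2 held less of these genes than any RAS library. Of the 10 genes, 5 lie on chromosome 7, which holds 7.76% of the table's genes. Ckm, Tnnt3, Mb and Atp2a1 overlap other genes of the table, and no strand-specific step is stated.

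Only 5 of the 10 genes reached the minimum for the fit over all genes, a mean of 1 FPKM over the 6 libraries. Acta1 and Popdc2 had means of 82.7 and 6.12 FPKM, while Mylpf (1.53), Tnnc2 (1.34) and Tnni2 (1.19) passed through control 1 alone. Just under the minimum lay Tnnt3 (0.990), then Ckm (0.711), Mb (0.699), Atp2a1 (0.320) and Bves (0.151). The log2 differences were -0.69 ± 0.64 for Mylpf, -0.87 ± 0.58 for Tnnc2 and -0.93 ± 0.60 for Tnni2 (SE). Without control 1 they were 0.14, -0.12 and -0.16, so that of Mylpf changed sign.

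Ranges that did not overlap and lay lower in RAS were found for 4 of the 10 genes, Acta1, Popdc2, Ckm and Bves, and for 9.34% of all genes in the table. Among the genes in the fit it was 2 of 5, against 12.5% of the 12606. The mean was lower in RAS for 10 of the 10 genes, against 54.6% of all genes. Without control 1 it was lower for 8 of 10, since Mylpf averaged 0.533 FPKM in RAS and 0.409 FPKM in the remaining controls, and Mb 0.329 FPKM in RAS and 0.159 FPKM in those controls. Control 1 was the highest library for 9 of the 10 genes, against 24.9% of all genes. Acta1 and Popdc2 chose the set, so these counts describe it and are not evidence about RAS. Over all genes, limma with Benjamini-Hochberg adjustment called 0 of 12606 (0%) at an adjusted p of 0.05, with a smallest adjusted p of 0.138, and 1294 had an unadjusted p under 0.05.

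Acta1 did not keep a fixed ratio to the muscle-fibre genes. Its FPKM divided by their summed FPKM was 10.7, 36.2 and 16.0 in RAS and 5.93, 98.7 and 21.1 in control. The ratio was lowest in control 1, where fibre transcripts were plentiful, and highest in control 2, where Acta1 was at 134 FPKM with 24 read equivalents of the 7 genes together. Against Popdc2 the ratio was steadier, at 5.35, 15.5 and 10.7 in RAS and 17.8, 17.1 and 8.55 in control.

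**Figure D2:**
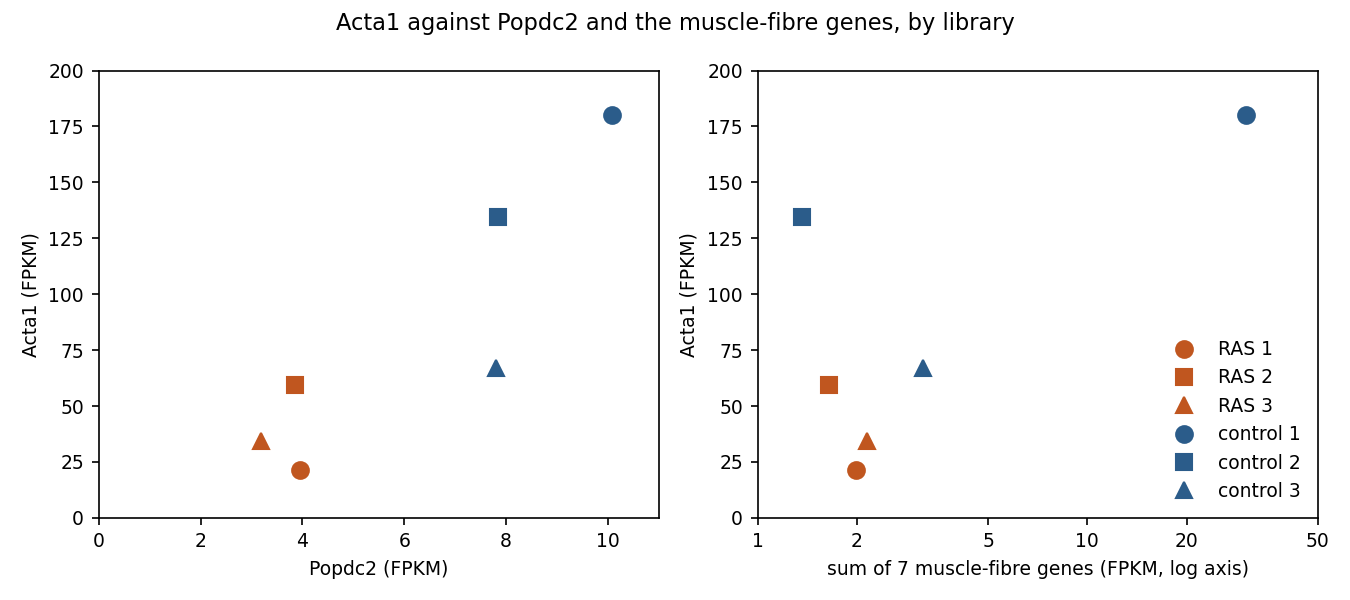
Acta1 (FPKM, vertical axes) against Popdc2 (FPKM, left) and against the summed FPKM of the 7 muscle-fibre genes (right, log axis), one point per library. Control 2, at 134 FPKM of Acta1, lies high on the left with Popdc2 at 7.85 FPKM, and at the far left of the right panel with a sum of 1.36 FPKM.

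Over the 6 libraries, the 7 muscle-fibre genes had high correlations with each other, Acta1 had its highest ones with Popdc2 and Ckm, and Pearson's r of Bves with the muscle-fibre genes was near 0 or negative. Correlations of log2(FPKM + 1) were computed for all 45 pairs of genes, with exact permutation p-values (two-sided, 720 orders) adjusted over the 45. The smallest possible p was 0.00139 for Pearson's r and larger for Spearman's rho, where the reversed order of ranks counts too. No pair passed: 0 pairs had an adjusted p under 0.05 for Pearson's r (smallest 0.140, 14 unadjusted) or for Spearman's rho (smallest 0.328, 1 unadjusted). With 45 pairs, a single pair at the smallest possible p would not pass the adjustment either. The lack of passing pairs therefore says little about any 1 pair.

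Among the 21 pairs of muscle-fibre genes, r lay between 0.897 and 0.997 (median 0.978), while rho lay between -0.0857 and 0.829 (median 0.543). The relation rests on control 1. Without it r ran from -0.685 to 0.900 with a median of 0.324, and 6 of the 21 pairs were negative. Without the 2 libraries farthest from the median it ran from -0.924 to 0.826 (median 0.315). These 2 were set by the gene of each pair named first in the opening list, so they differed between pairs. After subtraction of group means, which keeps control 1 apart from the other controls, r was 0.936 to 0.996. The pair with the highest r, over the 6 libraries and also without control 1, was the troponin subunits Tnni2 and Tnnc2. It had r = 0.997 (exact permutation p = 0.00694, adjusted 0.140), and r = 0.900 without control 1. Its rho = 0.829 (exact p = 0.0583, adjusted 0.328) was shared by other pairs. Without the 2 farthest libraries its r was 0.784, below the 0.826 of Ckm and Tnnt3. Outside control 1, Tnni2 and Tnnc2 both lay at 5 read equivalents or fewer, where a difference of 1 read moves the order.

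Acta1 and Popdc2 had r = 0.852 (exact permutation p = 0.0375, adjusted 0.140) and rho = 0.829 (exact p = 0.0583, adjusted 0.328). Without control 1 r was 0.759. Without the 2 libraries farthest from the median of Acta1, RAS 1 and control 1, r was 0.815, and within groups it was 0.398. Both genes were chosen because they were lower in RAS, which by itself gives such a pair a positive r. Acta1 and Ckm had r = 0.757 (exact permutation p = 0.0292, adjusted 0.140) and rho = 0.943 (exact p = 0.0167, adjusted 0.328), and r was 0.753 without control 1 and 0.593 without RAS 1 and control 1. With the 7 muscle-fibre genes Acta1 had r of 0.437 to 0.757 over the 6 libraries and of -0.921 to 0.753 without control 1, when 4 of the 7 were negative. Popdc2 had r of 0.481 to 0.752 with the same genes over the 6 libraries and of -0.610 to 0.784 without control 1, when 2 of the 7 were negative. Within groups, Acta1 had r of 0.337 to 0.574 with these 7 genes, a range that holds its 0.398 with Popdc2. The within-group r of Popdc2 with the 7 genes was 0.733 to 0.845. Within-group values still include control 1.

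Over the 6 libraries, Bves had higher r with Acta1 and Popdc2 than with the muscle-fibre genes, an order that did not hold for rho. Its r was 0.683 with Acta1 (exact permutation p = 0.119, adjusted 0.224; rho = 0.812, exact p = 0.0722, adjusted 0.361) and 0.642 with Popdc2 (exact permutation p = 0.181, adjusted 0.262; rho = 0.725, exact p = 0.122, adjusted 0.458). Without the 2 libraries farthest from the median of Acta1 or of Popdc2 these were 0.987 and 0.843, and within groups 0.190 and -0.469. With the muscle-fibre genes r lay between -0.292 and 0.0980 over the 6 libraries and between -0.873 and 0.710 without control 1. Within groups, which still include control 1, it lay between -0.820 and -0.657. Over the 6 libraries rho lay between -0.522 and 0.754, the highest of them with Ckm. At 0 to 14 read equivalents, Bves gives these values little precision.

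**Figure D3:**
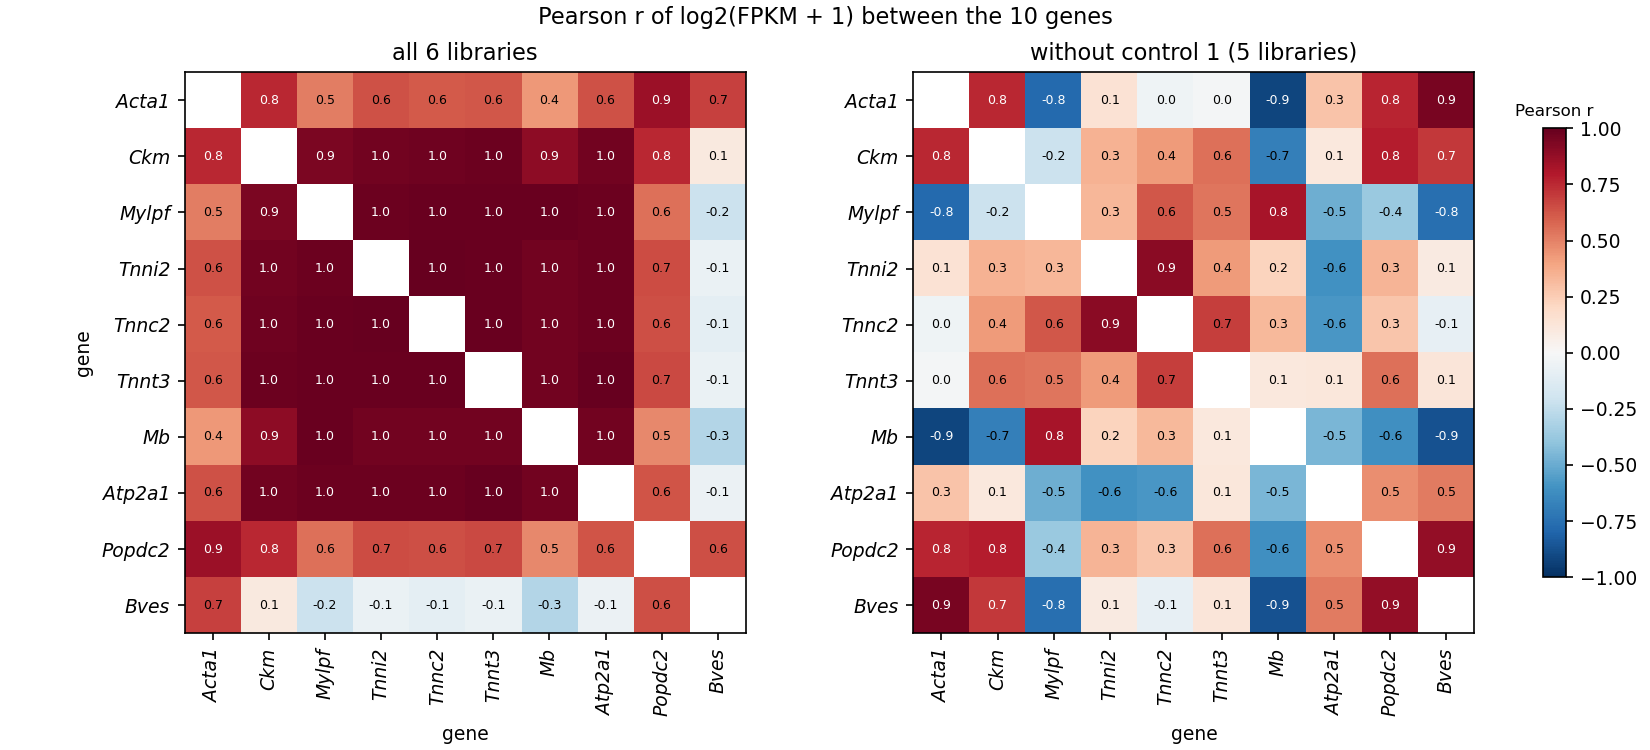
Pearson r of log2(FPKM + 1) between the 10 genes (both axes) over all 6 libraries on the left and over 5 libraries without control 1 on the right, coloured from -1 (blue) to 1 (red). The block of high values among the 7 muscle-fibre genes on the left, 0.897 to 0.997, breaks up on the right into values between -0.685 and 0.900.

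The genes whose levels ran most like these over the 6 libraries were sought among 11061 named genes outside the set with a mean of at least 1 FPKM. For Acta1 they were Top1 (r = 0.986), Smarcal1, Irf8, Klhl25 and Nrp2, and 21 genes had r of at least 0.95. For Popdc2 they were Gnai3 (r = 0.995), Dhx30, Sf3b3, Naa15 and Myadm, and 141 genes had r of at least 0.95. For Tnni2 they were Slbp (r = 0.992), Rab14, Ccdc76, Oxsm and Srp54b, with 56 genes at that level. None of those named encodes a sarcomere protein, but few such genes were in the search. Of 28 fast-fibre sarcomere genes outside the set, 7 reached the minimum, and Myh2 and Tcap did not. With 6 points many genes reach such values, so the order is a description with no p.

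Other genes of the sarcomere, of calcium handling and of the Popeye family were read from 7 lists written with earlier results of these data known. Of the genes in the fit, 57.0% had a negative log2 difference, with a median of -0.04, and no gene of any list passed the test over all genes. The named genes are the up to 4 most abundant of each list that were in the fit.

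Of 28 fast-fibre sarcomere genes outside the set, 7 were in the fit, 6 with a lower and 1 with a higher value in RAS, 0 of them past the test (median -0.15, 0.09 without control 1, -0.07 without RAS 3 and -0.30 without RAS 2). Tpm1 and Tpm2, tropomyosins that smooth muscle also makes, did not share the step to control 1. Tpm1 was at 65.8, 72.3 and 71.6 FPKM in RAS and 73.1, 91.5 and 99.3 FPKM in control. Tpm2 was at 10.3, 12.3 and 11.8 FPKM in RAS and 10.8, 15.8 and 15.6 FPKM in control. Neither was highest in control 1. Myl1, the essential light chain of fast myosin, was at 24.5, 18.2 and 17.6 FPKM in RAS and 37.0, 14.6 and 20.1 FPKM in control (log2 difference -0.15 ± 0.31 SE, limma adjusted p = 0.889). Control 1 was again the highest library, but Myl1 lay far above the muscle-fibre genes in every library. Unc45b, a myosin chaperone, was highest in RAS 1, at 6.88 FPKM.

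Most of the list was highest in the same library as the 7 muscle-fibre genes: 19 of the 28, or 67.9%, had their highest value in control 1, against 24.9% of all genes. The examples that follow were chosen after their values were seen. Myh2, a fast myosin heavy chain, was at 2.13 FPKM in control 1 and at most 0.0729 FPKM in the other libraries. Tcap, the cap protein of titin, was at 2.40 FPKM in control 1 and at most 0.117 FPKM elsewhere. Csrp3, the muscle LIM protein, was at 1.46 FPKM in control 1 and 0.0851 FPKM in control 3 and was not above 0 in any other library. Myot, myotilin of the Z disc, was listed at 0 in every library except control 1, at 0.402 FPKM.

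**Figure D4:**
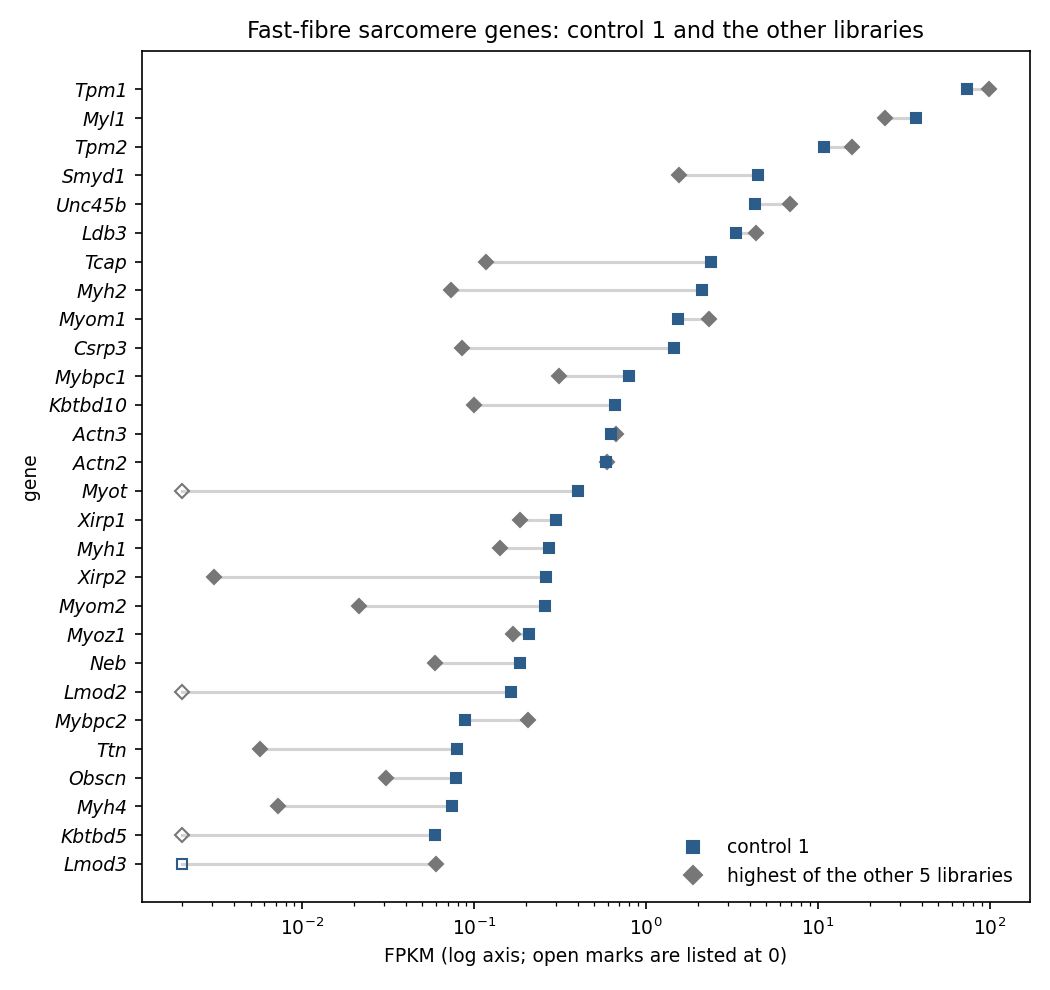
FPKM (horizontal log axis) of 28 fast-fibre sarcomere genes in control 1 (squares) and in the highest of the other 5 libraries (diamonds), sorted by control 1, with open marks for genes listed at 0. Control 1 lies to the right for 19 of the 28 genes, with long steps for Myh2 and Tcap, and to the left for Tpm1 and Tpm2.

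Of 16 genes of calcium release and reuptake, 4 were in the fit, 3 lower and 1 higher in RAS and 0 past the test (median -0.37, -0.22 without control 1 and -0.19 without RAS 3), and 7 of the 16 were highest in control 1. Atp2a2, the SERCA pump that most tissues share with slow muscle, was at 44.9, 47.7 and 41.4 FPKM in RAS and 61.3, 60.0 and 53.2 FPKM in control. Jph2, which holds the reticulum to the plasma membrane, was at 1.38, 1.63 and 1.65 FPKM in RAS and 2.02, 3.76 and 2.89 FPKM in control. Neither gene's groups overlapped, and RAS lay lower in both, as it did for 12.5% of the genes in the fit. The limma adjusted p was 0.390 for Atp2a2 and 0.377 for Jph2. Casq1, the calcium store protein of fast fibres, was at 2.12, 1.01 and 0.314 FPKM in RAS and 2.77, 0.720 and 1.72 FPKM in control, so its groups overlapped. Srl, sarcalumenin, was at 2.08, 2.13 and 1.39 FPKM in RAS and 2.08, 1.77 and 1.29 FPKM in control.

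Of 11 energy genes of striated muscle, 7 were in the fit, 2 lower and 5 higher in RAS and 0 past the test (median 0.26, and -0.00 without RAS 3). Cox8b, Cox7a1 and Fabp3 are also markers of brown adipocytes. Cox8b, a cytochrome oxidase subunit, was at 53.6, 89.97 and 396 FPKM in RAS and 166, 60.7 and 35.8 FPKM in control. Cox7a1, another such subunit, was at 33.0, 42.7 and 174 FPKM in RAS and 69.1, 23.6 and 15.9 FPKM in control. Fabp3, the fatty acid carrier of heart, was at 0.850, 2.02 and 27.4 FPKM in RAS and 3.95, 2.17 and 0.967 FPKM in control. All 3 were highest in RAS 3 and next highest in control 1. Pfkm, the phosphofructokinase of muscle, was flatter, at 9.49, 10.1 and 9.95 FPKM in RAS and 9.66, 7.79 and 6.98 FPKM in control.

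Slow-fibre and cardiac genes lay mostly under the minimum. Of 16, 3 were in the fit, 2 lower and 1 higher in RAS (median -0.05, and -0.16 to 0.19 with 1 library left out), and 3 of the 16 were highest in control 1. Tpm3, a tropomyosin of slow fibres that other cells also make, was at 31.9, 29.7 and 73.5 FPKM in RAS and 55.5, 36.2 and 55.6 FPKM in control. Myl4, the light chain of the atrium and of embryonic muscle, was at 6.84, 4.05 and 7.73 FPKM in RAS and 6.01, 4.47 and 5.03 FPKM in control. Actc1, cardiac actin, was at 1.62, 1.46 and 1.20 FPKM in RAS and 2.52, 1.18 and 1.07 FPKM in control. Groups overlapped for each of the 3. From the list of myogenic factors and satellite cell genes, Mef2a and Mef2c were in the fit, and neither passed the test. Both are transcription factors that are also made outside muscle. Mef2a was at 11.6, 11.2 and 7.89 FPKM in RAS and 12.3, 11.5 and 9.90 FPKM in control. Mef2c was at 4.12, 5.48 and 4.39 FPKM in RAS and 5.32, 4.57 and 4.38 FPKM in control, and the groups overlapped for both. The muscle-determining factors Myod1, Myog and Myf5 and the satellite cell factor Pax7 were each listed at 0 in 5 of the 6 libraries and under 0.05 FPKM in the other, which was control 1 for Myod1 and Myog, RAS 1 for Myf5 and RAS 2 for Pax7. In control 1, Myod1 and Myog rested on 1 read equivalent each.

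The third Popeye gene, Popdc3, was at or near 0, with 0, 0.0344 and 0 FPKM in RAS and 0.0346, 0.0899 and 0.0684 FPKM in control. Like Bves, it was highest in control 2. Of 7 Popeye relatives and partners, 5 were in the fit, 2 lower and 3 higher in RAS and 0 past the test (median 0.13, and -0.00 to 0.22 with 1 library left out, the lowest without control 3). None of the 5 was lower after division by median-ratio size factors or with the scaled counts, so the split depended on the scaling. Vamp3, a vesicle fusion protein, was at 44.3, 44.2 and 39.5 FPKM in RAS and 45.7, 40.9 and 42.2 FPKM in control. Tjp1, a tight junction scaffold, was at 23.6, 23.8 and 16.6 FPKM in RAS and 21.5, 23.7 and 19.9 FPKM in control. For both, RAS 3 was the lowest library. Kcnk2, the potassium channel that Popeye proteins bind, was at 12.3, 10.4 and 10.2 FPKM in RAS and 10.9, 10.985 and 5.41 FPKM in control. Arhgef25, a guanine nucleotide exchange factor, was at 11.1, 12.4 and 15.2 FPKM in RAS and 9.31, 12.5 and 13.4 FPKM in control. The groups overlapped for each of these 4 partners.

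Of 9 genes of the actins and the serum response factor, 8 were in the fit. All 8 had a negative log2 difference, 0 of them past the test (median -0.59, and -0.68 to -0.48 with 1 library left out, against -0.04 for all genes). It was 7 of 8 without control 1 and also without RAS 3, and Actc1, given above, was higher in every RAS library than in control 2 and control 3. Srf, the factor known to bind CArG boxes, was at 8.37, 8.34 and 10.7 FPKM in RAS and 19.0, 18.8 and 15.2 FPKM in control, which made the log2 difference -0.88 with an SE of 0.14 (limma adjusted p = 0.197). Actb, the actin of all cells, was at 530, 509 and 516 FPKM in RAS and 823, 740 and 913 FPKM in control (limma adjusted p = 0.295). The controls thus lay well above RAS for both genes. Actg1, its gamma counterpart, was at 270, 309 and 331 FPKM in RAS and 512, 486 and 505 FPKM in control (limma adjusted p = 0.261). Acta2, the actin of smooth muscle, was at 134, 142 and 119 FPKM in RAS and 151, 207 and 218 FPKM in control (limma adjusted p = 0.414). Every RAS library lay below every control library for these 4 genes, as it did for 12.5% of the genes in the fit, and control 1 was the lowest control for Acta2 and the highest for Srf.

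Markers of other cells stood apart in control 1. The summed FPKM of the 12 skeletal muscle markers was 27.3, 20.2 and 18.9 in RAS and 44.2, 16.3 and 22.9 in control, most of it Myl1. Without Myl1 the sum was 2.79, 1.95 and 1.33 in RAS and 7.25, 1.71 and 2.79 in control. Of the defining markers, Myh4 and Pvalb were listed at 0 in at least 3 libraries. The step to control 1 remained in that sum. The 12 smooth muscle markers summed to 319, 372 and 303 FPKM in RAS and 342, 499 and 533 FPKM in control, and none was highest in control 1. The 8 mesothelium markers summed to 116, 179 and 185 FPKM in RAS and 34.7, 222 and 280 FPKM in control, so control 1 was far below the rest. The 10 brown or beige adipocyte markers summed to 163, 229 and 1040 FPKM in RAS and 348, 133 and 65.4 FPKM in control, with RAS 3 above the rest and control 1 next. The part of these cells in the levels of Acta1, Popdc2 and the muscle-fibre genes was not tested. Without control 1 the log2 differences were -1.40 for Acta1 and -0.92 for Popdc2, against -1.71 and -1.03 with it.

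**Figure D5:**
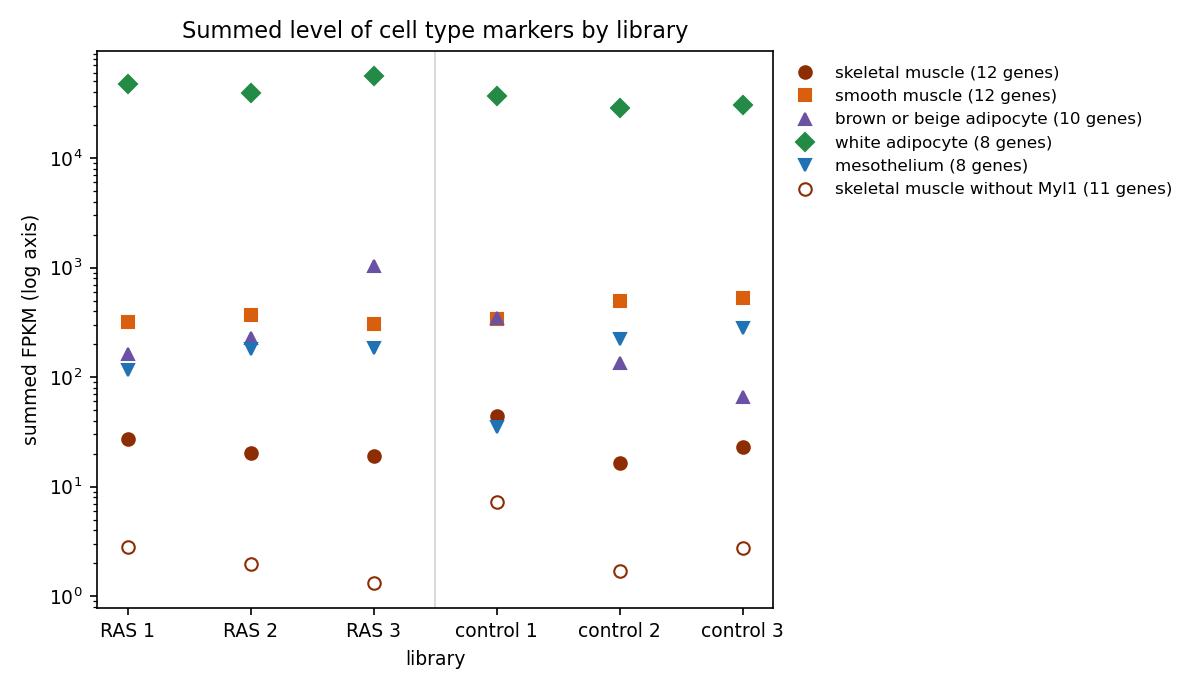
Summed FPKM (vertical log axis) of 5 marker lists, and of the skeletal muscle list without Myl1, in each library. Control 1 has the highest skeletal muscle sum (44.2) and the lowest mesothelium sum (34.7), and RAS 3 the highest brown or beige adipocyte sum (1040).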

How the data were processed

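RNA-seq of adipose tissue from 6 samples, 3 RAS and 3 control, was read from 1 deposited table. Libraries were made from poly(A) RNA with random priming and read on an Illumina HiSeq, per the labels' protocols. The submitters' processing notes name the tools TopHat2 2.0.9 and Cufflinks 2.1.1; the genome build is not given in the sources used here. Of 18403 genes with an identifier in GENCODE M21 (GRCm38), 99.7% overlapped that gene's locus, and coordinates are the table's, counted from 1.

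FPKM values were used as the authors deposited them. The authors also deposited a count signal, already scaled: 97.9 to 98.9% of its values were whole multiples, within 0.02, of 1 value per library (0.911 to 1.06), and division by that value gave read equivalents. These are not raw counts, and no count model was run. The 4 columns that give group values were left out. Control columns were identified by elimination.

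The 12606 of 19928 genes that averaged 1 FPKM or more were fitted with limma 3.58.1 in R 4.3.3 (lmFit, eBayes with a trend) on log2(FPKM + 1), which understates changes of low genes, with Benjamini-Hochberg adjustment. The fit was tested on simulated data. Correlations and their exact permutation by pairings were computed with numpy, with ranks from scipy 1.17.1. Tables and figures used Python 3.11.15, pandas 2.3.3, numpy 2.4.6 and matplotlib 3.10.9. Promoters are RefSeq's (GRCm38.p6). Named genes are the 10 genes, up to 4 genes per list by mean FPKM, and the 5 genes most like Acta1, Popdc2 and Tnni2. The genes and lists were chosen with earlier results of these data known. Symbols are the table's, and 2 list entries, Myf6 and Pax3, were not matched in it. Alternatives were another pseudocount (0.1), other minimums (none or 5 FPKM), quantile and median-ratio normalization, a robust variance model, the replicate number as a block, the scaled counts, and each library left out. One list gene is not reported here.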

Additional observations from a re-analysis of the deposited data

How the results depend on the processing

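The number of genes called over all genes was 0 in every alternative that kept all 6 libraries. With 1 library left out it ranged from 0 to 2 (2 without control 1, and 1 each without RAS 1 and RAS 2), and it was 3 without control 1 and RAS 3 together, an alternative chosen after seeing the data. No gene of the 7 lists was called in any of these fits, and the leave-out fits rest on 2 samples in a group. The mean r among the 7 muscle-fibre genes was 0.973. It was 0.903 with a pseudocount of 0.1 and 0.483 with Spearman's rho, and ranged from 0.167 (without control 1) to 0.982 with 1 library left out. The log2 difference of Popdc2 was -1.20 with a pseudocount of 0.1, -1.23 with the scaled counts and -0.85 without control 1 and RAS 3, against -1.03. The log2 difference of Tnni2 was -1.79 with a pseudocount of 0.1, against -0.93. Samples of the 2 groups share only replicate numbers: deviations from the group means correlated at 0.178, 0.0960 and 0.219 between same-numbered samples, although every sample correlated best with its own number. With the replicate number as a block, 0 genes were called and 1663 had an unadjusted p under 0.05, against 1294. With a minimum of 5 FPKM, Mylpf, Tnni2 and Tnnc2 had no value. A test on counts was not run, because the deposited signal is not raw counts. Depth limits Bves and the 7 muscle-fibre genes outside control 1, at 0 to 14 read equivalents.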
